A study of Mus musculus with 15 samples.

Results

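The NF-kB subunits and IkB proteins were followed by their transcripts in RAW264.7, a macrophage line from mouse. The list named 10 genes: the subunit genes Nfkb1, Nfkb2, Rel, Rela and Relb, the classical IkB genes Nfkbia, Nfkbib and Nfkbie, and the nuclear IkB genes Nfkbiz and Bcl3. A gene was taken by the probe set that carries its symbol alone in the platform's gene table, and the brightest would have been kept had there been several. 9 of the 10 had such a probe set, 1 each, among 22180 genes with one, and all 9 passed the filter on dim genes. Nfkb1 was not analysed here.

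15 arrays fell into 5 groups of 3, each group with 1 array from each of 3 experiments. In 1 group the cells received 2.5 µM 13-HDHEA together with 2.5 µM 16-HDHEA and then LPS, which is called the combined treatment here. In the others they received 5.0 µM 13-HDHEA and LPS, 5.0 µM 16-HDHEA and LPS, vehicle (0.1% ethanol) and LPS, or vehicle and no LPS. HDHEAs are hydroxydocosahexaenoyl ethanolamides, and the 13- and 16- forms are positional isomers that differ in the carbon carrying the hydroxyl group. The compounds or vehicle were given 30 min before 1.0 µg/mL LPS, a bacterial outer membrane component, and RNA was taken at 24 h. All groups share the cell line and the ethanol, so the values describe 1 transformed line at 1 time.

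NF-kB is a family of dimeric transcription factors that switch on inflammatory and survival genes. In resting cells the classical IkB proteins hold the dimers in the cytoplasm. Sensing of LPS activates a kinase complex that marks IkB for destruction, after which the dimers enter the nucleus. Several IkB and subunit genes are themselves NF-kB targets, which gives the pathway feedback loops known well in macrophages. The nuclear IkB proteins act differently: they bind subunits on DNA and alter which target genes are transcribed.

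Values are on a log2 scale, where 1 unit is a doubling, and the median probe set of an array stood at 3.62 to 3.69. Of the 4 lymphocyte markers with a probe set, 0 lay above the 40th percentile on every array, and only Cd79a exceeded it at all, on 1 array. All 9 macrophage markers lay above it on every array. Their summed level was 14.37 to 14.49 with LPS and vehicle and 14.34 to 14.45 without LPS. Within that sum the macrophage markers did not move alike: Adgre1, a surface receptor gene used as a macrophage marker in mouse, rose 22.6-fold (adjusted p = 2.26e-10 in limma) and Cd14, an LPS co-receptor gene, 1.23-fold, while Csf1r fell by 0.24 and Tlr4, the LPS receptor gene, fell by 0.33 on the log2 scale. The other 5 did not pass. The summed level of the 5 neutrophil markers was 5.71 to 6.23 with LPS and vehicle and 5.22 to 5.54 without LPS. The summed level of the 5 fibroblast markers was 6.24 to 6.49 with LPS and vehicle and 5.80 to 6.09 without LPS. S100a8, a neutrophil marker, differed by 1.30 (adjusted p = 0.00536 in limma) and Pdgfra, a fibroblast marker, by 0.96 (adjusted p = 0.0472). Cdh5, an endothelial marker, differed by 0.42 (adjusted p = 0.0412). Of the tested markers, the other 2 neutrophil, 4 fibroblast and 5 epithelial and endothelial ones did not pass. Differences were negative for 1 of 3 tested neutrophil markers and for 3 of the 6 epithelial and endothelial ones. Only 1 of the neutrophil and 2 of the fibroblast markers lay above the 40th percentile on every array. Of the 6 epithelial and endothelial markers 4 did, with a summed level of 7.17 to 7.27 with LPS and vehicle and 6.93 to 7.19 without LPS. The part of these markers in the results was not tested. In bulk RNA, fewer cells of a kind and less RNA per cell cannot be told apart.

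The first comparison set LPS with vehicle against no LPS with vehicle. 8 of the 9 measured members rose and none fell, while Rela did not pass the test. The rises ran from 1.44-fold for Relb to 12.5-fold for Nfkbiz, and the median log2 difference of the 9 was 1.10, against 0.00021 over all 15468 genes tested. Over all genes, 13.5% were called higher and 16.3% lower at an adjusted p under 0.05 in limma. The members of the list were named with earlier results of these data known.

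**Figure D1:**
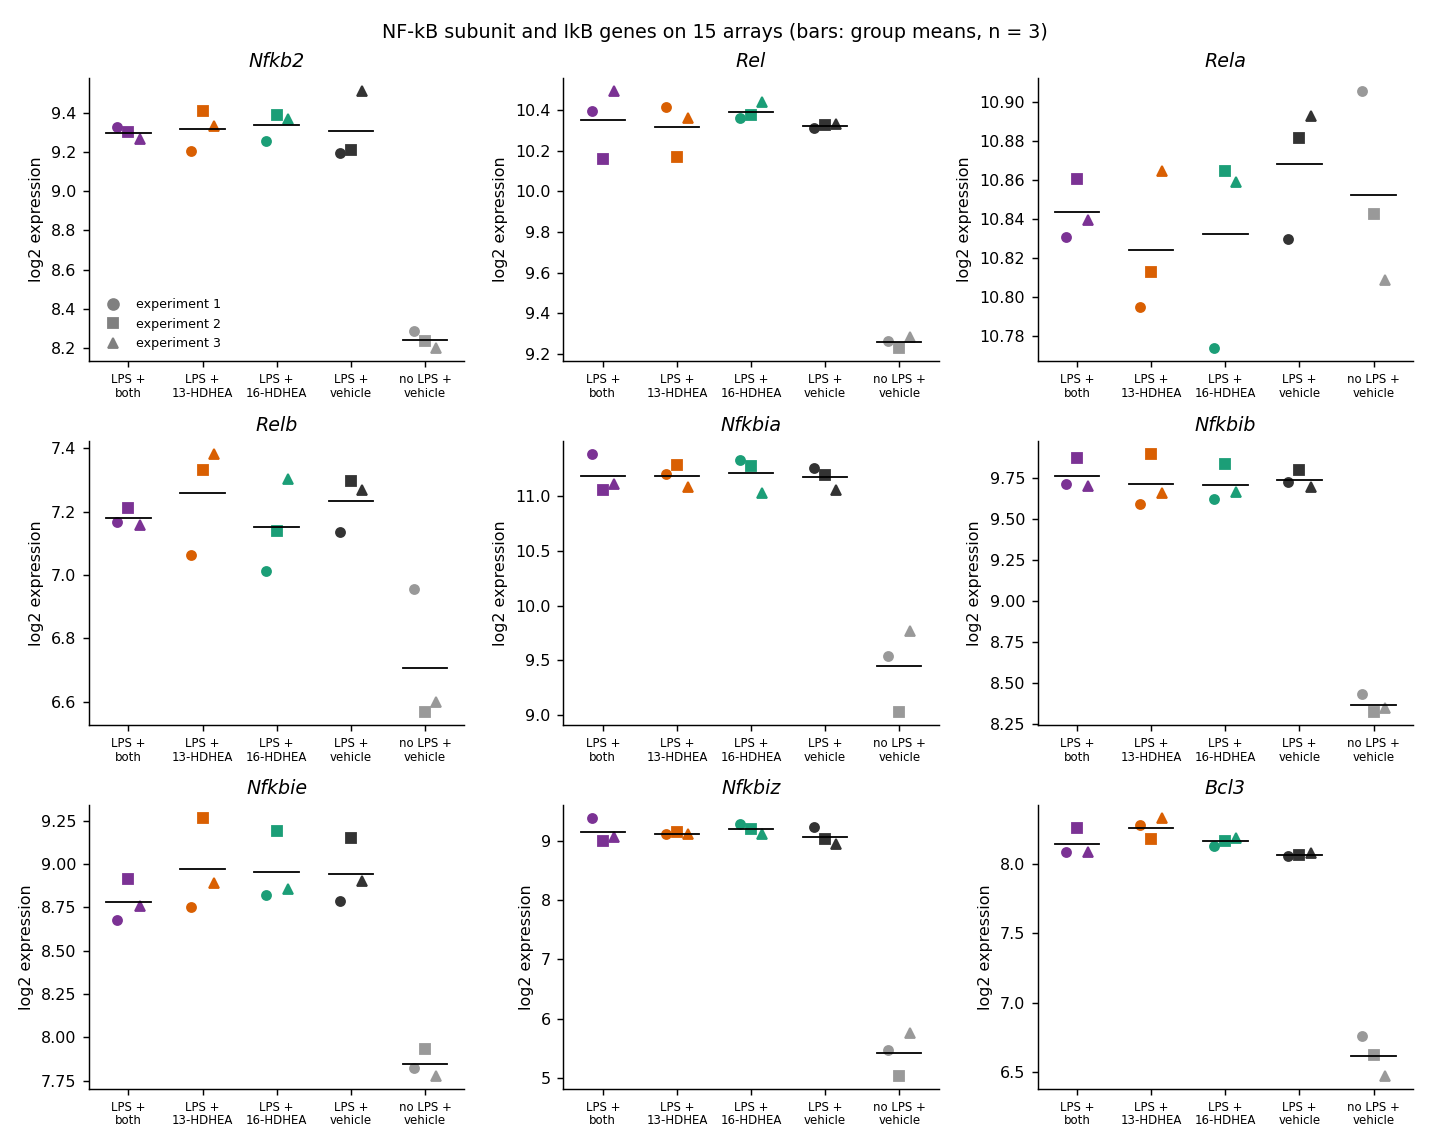
Log2 expression of the 9 measured genes (vertical axes, each with its own scale) in the 5 groups, 1 point an array, with marker shape for the experiment and a bar for the mean of 3 arrays. The LPS groups lie together and above the group without LPS for 8 genes, and Rela spans only 10.77 to 10.91 over all arrays.

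Positions of the genes are those of RefSeq on GRCm38.p6. Among the subunits, Rela (probe set 17356490, chr19:5637442-5648134) encodes the transactivating partner of the classical dimer. Rela had log2 values of 10.83, 10.88 and 10.89 with LPS and vehicle in experiments 1, 2 and 3, against 10.91, 10.84 and 10.81 without LPS. The groups overlapped, and the difference was 0.02 (95% interval -0.12 to 0.16, adjusted p = 0.898 in limma). The interval spans 0.918-fold to 1.11-fold. The sign of this small difference was not stable: it was -0.05 with quantile normalization repeated over the tested genes and -0.01 without the array without LPS of experiment 3.

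Rel (probe set 17261107, chr11:23736847-23770969) encodes c-Rel, a transactivating subunit prominent in blood cells. It had 10.31, 10.33 and 10.33 with LPS and vehicle, against 9.26, 9.23 and 9.28 without LPS. The groups stood far apart and varied little, with SDs of 0.00839 and 0.0295 (n = 3 each). Rel rose 2.09-fold (95% interval 1.83 to 2.40), with log2 differences of 1.05, 1.10 and 1.05 in the 3 experiments (adjusted p = 7.17e-07 in limma).

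Nfkb2 (probe set 17359967, chr19:46300994-46312400) encodes a precursor that restrains other subunits until it is processed to a DNA-binding subunit in the alternative pathway. It had 9.20, 9.21 and 9.51 with LPS and vehicle, against 8.28, 8.24 and 8.20 without LPS. The array of experiment 3 was the highest with LPS, and the groups did not overlap. Nfkb2 rose 2.09-fold (1.83 to 2.40, adjusted p = 8.07e-07 in limma), nearly the same factor as Rel.

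Relb (probe set 17487325, chr7:19606217-19629438) encodes the usual partner of processed Nfkb2. It had 7.14, 7.30 and 7.27 with LPS and vehicle, against 6.95, 6.57 and 6.60 without LPS. The groups did not overlap, although the array without LPS of experiment 1 came close to the LPS arrays. Relb rose 1.44-fold (1.21 to 1.72, adjusted p = 0.00322 in limma), with log2 differences of 0.18, 0.73 and 0.67 in experiments 1, 2 and 3.

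Among the classical IkB genes, Nfkbia (probe set 17281219, chr12:55489409-55492647) encodes IkB-alpha, the inhibitor resynthesised soonest after activation. It had 11.26, 11.19 and 11.06 with LPS and vehicle, against 9.54, 9.03 and 9.77 without LPS. The spread was wider without LPS (SD 0.38) than with it (SD 0.102, n = 3 each), and the groups did not overlap. Nfkbia rose 3.30-fold (2.61 to 4.18, adjusted p = 1.52e-06 in limma), with log2 differences of 1.72, 2.17 and 1.29 in experiments 1, 2 and 3.

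Nfkbib (probe set 17488544, chr7:28758251-28766644) encodes IkB-beta. It had 9.73, 9.80 and 9.69 with LPS and vehicle, against 8.43, 8.32 and 8.35 without LPS. Both groups were tight and stood apart, and Nfkbib rose 2.59-fold (2.25 to 2.98, adjusted p = 9.13e-08 in limma). Nfkbie (probe set 17337927, chr17:45555700-45563169) encodes IkB-epsilon, which holds Rela and c-Rel dimers. It had 8.79, 9.15 and 8.90 with LPS and vehicle, against 7.83, 7.93 and 7.78 without LPS. Experiment 2 was highest on both sides, the groups did not overlap, and Nfkbie rose 2.14-fold (1.74 to 2.64, adjusted p = 3.38e-05 in limma).

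Of the nuclear IkB genes, Nfkbiz (probe set 17330967, chr16:55811375-55838954) encodes IkB-zeta, which is needed in mouse macrophages for part of the delayed response to LPS. It had 9.23, 9.03 and 8.94 with LPS and vehicle, against 5.47, 5.03 and 5.76 without LPS. Without LPS the probe set stood at percentile 69.6 of its arrays on average, so this low level lay above the filter. Nfkbiz rose 12.5-fold (9.94 to 15.7), by 3.75, 3.99 and 3.18 on the log2 scale in experiments 1, 2 and 3 (adjusted p = 9.75e-10 in limma). Its difference ranked 44th in size among all 15468 genes tested.

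Bcl3 (probe set 17487457, chr7:19808462-19822824) encodes a nuclear IkB protein that binds homodimers of the processed precursors. It had 8.06, 8.06 and 8.08 with LPS and vehicle, against 6.76, 6.62 and 6.47 without LPS. The LPS arrays were almost level (SD 0.0114, n = 3) and spread less than those without LPS (SD 0.143). Bcl3 rose 2.73-fold (2.41 to 3.09, adjusted p = 1.94e-08 in limma), with log2 differences of 1.30, 1.44 and 1.61. Together, 8 of the 9 genes had LPS arrays wholly above those without LPS, which was so for 19.1% of all genes tested. With experiment as a block, 8 members were called, against 34.3% of all genes.

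**Figure D2:**
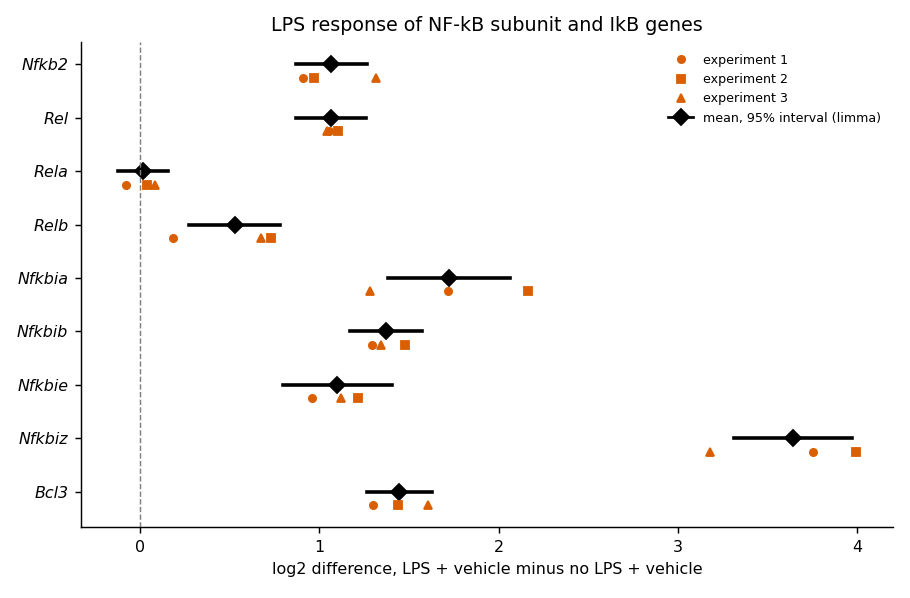
Log2 difference of LPS with vehicle minus no LPS with vehicle (horizontal axis) for the 9 genes, with the mean and its 95% interval from limma in black and the difference in each experiment below it. Nfkbiz lies farthest from 0 at 3.64, the other 7 called genes lie between 0.53 and 1.72, and the interval of Rela includes 0.

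The promoters of members that moved together are shown with the kB consensus motif, the degenerate 10-letter sequence to which NF-kB dimers bind. RefSeq windows on GRCm38.p6 were available for 7 of the members, Nfkb2 with 3 windows, and Nfkb1, Relb and Nfkbiz had no entry. Each sequence gives the 250 bases before the annotated start, 5′ to 3′ on the gene's strand, in lower case with matches on either strand in capitals, where overlapping matches run together. Shown are 3 windows with matches and that of Nfkbib, which rose and has none, all 4 lying wholly outside the annotated gene.
Nfkbia, chr12:55492648-55492897, minus strand: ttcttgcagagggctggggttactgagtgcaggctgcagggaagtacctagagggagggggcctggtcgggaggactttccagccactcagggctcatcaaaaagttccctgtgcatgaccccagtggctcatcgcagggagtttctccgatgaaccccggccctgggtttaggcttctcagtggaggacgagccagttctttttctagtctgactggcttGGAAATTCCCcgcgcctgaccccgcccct
Nfkbie, chr17:45555450-45555699, plus strand: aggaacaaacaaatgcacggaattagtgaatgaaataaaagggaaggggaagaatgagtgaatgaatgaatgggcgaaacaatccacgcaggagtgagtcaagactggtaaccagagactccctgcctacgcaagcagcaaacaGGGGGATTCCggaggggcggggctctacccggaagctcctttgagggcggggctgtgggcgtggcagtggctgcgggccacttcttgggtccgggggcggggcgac
Rel, chr11:23770970-23771219, minus strand: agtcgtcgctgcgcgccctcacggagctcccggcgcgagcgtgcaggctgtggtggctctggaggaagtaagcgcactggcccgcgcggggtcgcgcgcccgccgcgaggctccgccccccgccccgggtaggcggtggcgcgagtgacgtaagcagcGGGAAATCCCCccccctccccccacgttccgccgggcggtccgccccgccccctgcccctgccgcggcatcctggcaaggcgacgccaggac
Nfkbib, chr7:28766645-28766894, minus strand: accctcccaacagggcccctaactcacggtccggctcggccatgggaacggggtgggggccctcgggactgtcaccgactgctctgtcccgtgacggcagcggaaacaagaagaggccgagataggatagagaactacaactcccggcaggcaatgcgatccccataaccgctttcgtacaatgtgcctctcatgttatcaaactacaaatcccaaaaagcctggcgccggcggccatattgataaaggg

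The match in Nfkbia begins 29 bases before the start, on the opposite strand, and that in Nfkbie begins 106 bases before it. Rel has overlapping matches from 92 and 91 bases before the start. All 3 Nfkb2 windows held a match, and all 3 lie within the annotated span of the gene. Among all 32851 windows of this length, 3.9% held the motif, against 6 of the 9 member windows, which belong to 4 of 7 genes. These 6 include the 3 of Nfkb2, and the share over all is one of windows, not of genes. The windows of Rela, Nfkbib and Bcl3 held none, although Nfkbib and Bcl3 rose and Rela did not pass. A match describes these letters only, and windows of 1 gene can overlap.

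The other genes of the pathway were taken from 6 lists of 56 genes, of which 48 had a probe set and all 48 were tested. With LPS, 26 of the 48 were called in limma, against 29.8% of all genes tested. Of 9 measured kinase genes, 4 rose and 2 fell, with a median log2 difference of 0.05. Ikbke, an IkB kinase relative that acts in interferon induction, averaged 10.18 ± 0.154 with LPS and vehicle and 8.63 ± 0.216 without LPS (SD, n = 3 each), and rose 2.93-fold. Tab1, a binding partner of the kinase upstream of the IkB kinases, averaged 6.92 ± 0.0787 with LPS and vehicle and 7.61 ± 0.0221 without LPS, a log2 difference of -0.69. Map3k14, the kinase of the alternative pathway, averaged 5.59 ± 0.105 with LPS and vehicle and 6.23 ± 0.127 without LPS, a difference of -0.64. Adjusted p of these 3 genes ran from 1.23e-07 to 0.00053.

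Of 13 measured ubiquitin adaptors and ligases, 4 rose and 1 fell, with a median of 0.18. Of all genes tested, 13.5% were called higher and 16.3% lower. Traf1, a signalling adaptor of the TNF receptor family, rose 4.37-fold, with 8.90 ± 0.101 in LPS with vehicle and 6.77 ± 0.212 without LPS (SD, n = 3 each). Birc3, a ubiquitin ligase that also restrains the alternative pathway, rose 2.26-fold, and Rnf31, the catalytic subunit of the linear ubiquitin ligase, rose 1.53-fold. Of 3 measured other IkB-type and IkB-binding genes, 2 rose: Nfkbid, a further nuclear IkB gene, by 0.57 and Nfkbil1 by 0.41 on the log2 scale.

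Of 10 measured feedback inhibitors, 3 rose and 2 fell, against 13.5% and 16.3% of all genes tested, and the median was 0.09. Zc3h12a, a ribonuclease that degrades inflammatory mRNAs, rose 8.94-fold, with 9.77 ± 0.0725 in LPS with vehicle and 6.61 ± 0.137 without LPS (SD, n = 3 each). Tnfaip3, a ubiquitin-editing enzyme that ends NF-kB signalling, rose 5.81-fold, and its binding partner Tnip1 rose 2.34-fold. Of 7 measured coactivators and modifiers, 1 rose and 1 fell. With experiment as a block 2 of them fell, where 34.3% of all genes were called. The block also changed the counts of other lists: 6 ubiquitin adaptors and ligases rose, and 3 kinase genes and 3 feedback inhibitors fell. Sirt1, a deacetylase that acts on Rela, fell by 0.61 on the log2 scale. Hdac1, a histone deacetylase, rose by 0.29, but lost its call without the arrays without LPS of experiment 1 (adjusted p = 0.053) or 3 (0.0598) or the vehicle array of experiment 3 (0.0647).

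All 6 genes listed as needing IkB-zeta in mouse macrophages rose, with a median of 4.43, while 13.5% of all genes tested were called higher. The list was chosen with earlier results of these data known, and the part of IkB-zeta in these rises was not tested. Il6, a cytokine gene, rose at least 201-fold: it averaged 10.82 ± 0.0515 with LPS and vehicle and 2.55 ± 0.246 without LPS (SD, n = 3 each), where it lay below the 40th percentile of the arrays. Lcn2, which encodes a siderophore-binding protein, rose 144-fold. Csf2, the gene of a growth factor for granulocytes and macrophages, rose at least 33.6-fold, also from below the 40th percentile, and these lower bounds are taken against that percentile. The bound for Csf2 holds for its brightest probe set only. Its log2 difference was 5.23 with that probe set and 3.02 with the mean of its probe sets, which disagree in size. The median of 4.43 rests partly on the value of 5.23.

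**Figure D3:**
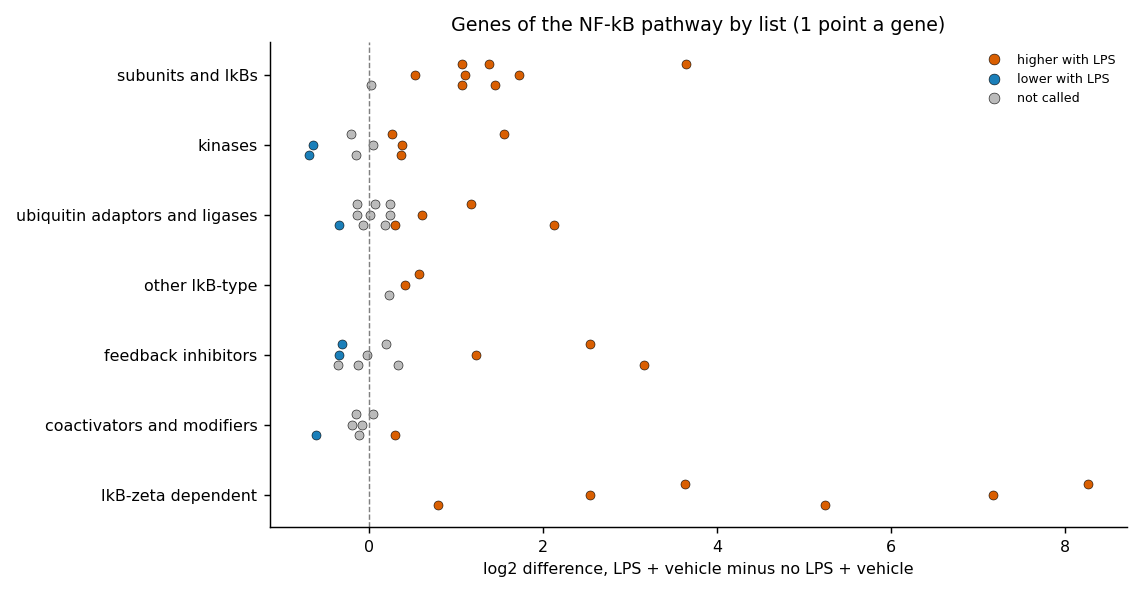
Log2 difference of LPS with vehicle minus no LPS with vehicle (horizontal axis) for the 9 measured subunit and IkB genes and for 48 other genes in 6 lists, 1 point a gene, coloured by call. Called genes lie on both sides of 0 for the kinase, ubiquitin, feedback and coactivator lists, and above 0 for the 3 other rows.

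With LPS present, none of the 9 genes passed in any comparison of HDHEAs. In 13-HDHEA against vehicle, 0.00646% of all genes were called, and in 16-HDHEA against vehicle and in the combined treatment against vehicle 0% were. At an unadjusted p under 0.05, 1 of the 9 members passed with 13-HDHEA, against 4.27% of all genes, and 0 of 9 passed with 16-HDHEA or with the combined treatment, against 2.97% and 3.48%. These comparisons share the vehicle arrays, so that their values are not independent of each other. Log2 differences of the members ran from -0.04 to 0.20 with 13-HDHEA, from -0.08 to 0.13 with 16-HDHEA and from -0.16 to 0.08 with the combined treatment. All 95% intervals lay within 0.798-fold to 1.30-fold for 13-HDHEA, 0.793-fold to 1.38-fold for 16-HDHEA and 0.724-fold to 1.33-fold for the combined treatment.

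**Figure D4:**
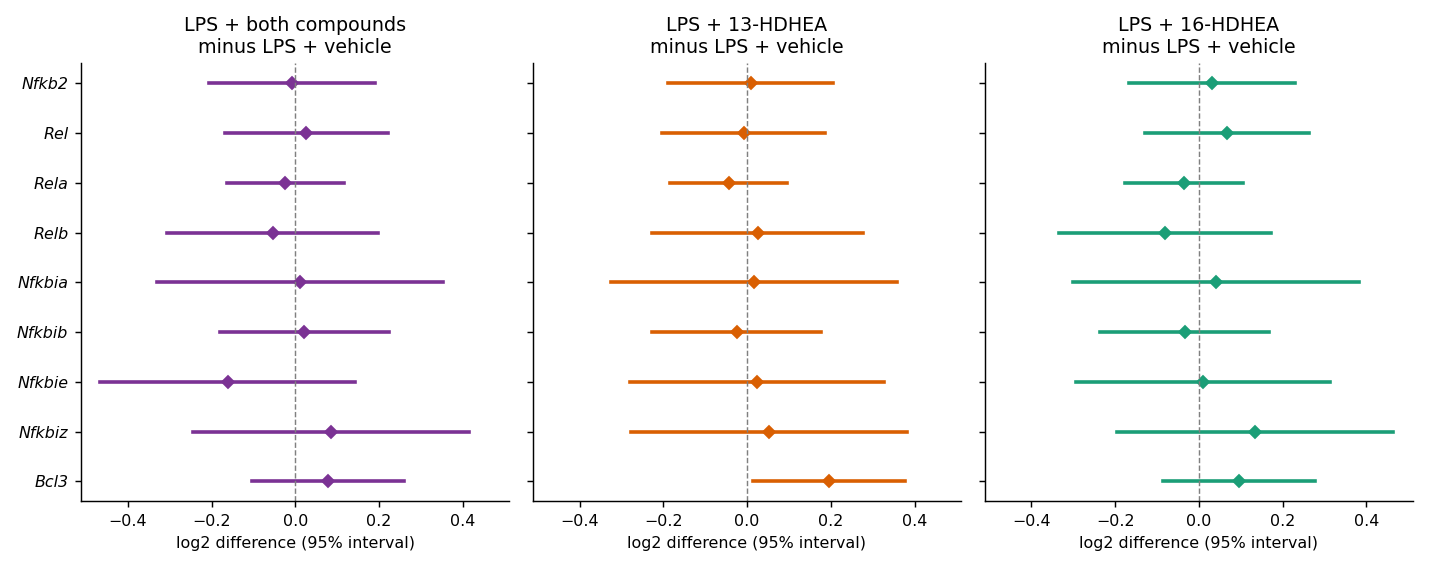
Log2 difference from LPS with vehicle (horizontal axes) of the 9 genes with the combined treatment, 13-HDHEA and 16-HDHEA, each with LPS, as the mean of 3 arrays and its 95% interval from limma. Every interval includes 0 except that of Bcl3 with 13-HDHEA, which runs from 0.01 to 0.38.

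Nfkbiz, the member with the widest LPS response, had log2 values of 9.38, 9.0003 and 9.07 with the combined treatment, 9.11, 9.14 and 9.11 with 13-HDHEA, and 9.29, 9.20 and 9.11 with 16-HDHEA. These overlapped the vehicle arrays at 9.23, 9.03 and 8.94. The order of group means was 16-HDHEA, combined, 13-HDHEA, vehicle, and no LPS, and only the last stood apart. The differences from vehicle were 0.08 (combined), 0.05 (13-HDHEA) and 0.13 (16-HDHEA), with adjusted p of 1.00 each in limma.

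Nfkbia had 11.38, 11.05 and 11.11 with the combined treatment, 11.20, 11.28 and 11.08 with 13-HDHEA, and 11.33, 11.27 and 11.03 with 16-HDHEA. The vehicle arrays, at 11.26, 11.19 and 11.06, lay within the range of these values, and the differences were 0.01, 0.02 and 0.04. Over the 12 LPS arrays, the range was 0.12 for Rela, 0.27 for Bcl3 and 0.59 for Nfkbie, with the other 6 genes between 0.30 and 0.44. The lowest LPS array exceeded the highest array without LPS by 3.18 for Nfkbiz and by 0.06 for Relb.

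Among the subunits with LPS, Nfkb2 had 9.32, 9.30 and 9.27 with the combined treatment, 9.20, 9.41 and 9.33 with 13-HDHEA and 9.25, 9.39 and 9.37 with 16-HDHEA, against 9.20, 9.21 and 9.51 with vehicle. Rela had 10.83, 10.86 and 10.84 with the combined treatment, 10.79, 10.81 and 10.86 with 13-HDHEA and 10.77, 10.86 and 10.86 with 16-HDHEA, against 10.83, 10.88 and 10.89 with vehicle. Both genes overlapped vehicle in each treatment, and their differences lay between -0.04 and 0.03. Relb had 7.17, 7.21 and 7.16 with the combined treatment, 7.06, 7.33 and 7.38 with 13-HDHEA and 7.01, 7.14 and 7.30 with 16-HDHEA, against 7.14, 7.30 and 7.27 with vehicle. Its lowest array in the 13-HDHEA, 16-HDHEA and vehicle groups was that of experiment 1, and all groups overlapped. Nfkbib had 9.71, 9.87 and 9.70 with the combined treatment, 9.59, 9.89 and 9.66 with 13-HDHEA and 9.62, 9.83 and 9.66 with 16-HDHEA, against 9.73, 9.80 and 9.69 with vehicle, and these groups overlapped as well.

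Bcl3 lay above the vehicle arrays on all 9 HDHEA arrays. It had 8.09, 8.26 and 8.09 with the combined treatment, 8.28, 8.18 and 8.33 with 13-HDHEA, and 8.13, 8.17 and 8.19 with 16-HDHEA, against 8.06, 8.06 and 8.08 with vehicle. The lowest HDHEA array, at 8.09, stood just above the highest vehicle array, at 8.08, and the vehicle arrays had an SD of 0.0114, against 0.0299 to 0.0976 in the HDHEA groups. The difference with 13-HDHEA was 0.20 (95% interval 0.01 to 0.38, unadjusted p = 0.0359, adjusted p = 1.00 in limma), with 0.22, 0.12 and 0.25 in the 3 experiments. The difference was 0.10 (-0.09 to 0.28) with 16-HDHEA and 0.08 (-0.10 to 0.26) with the combined treatment. For all HDHEA groups pooled against vehicle it was 0.12 (-0.02 to 0.27, adjusted p = 1.00), and in that comparison 0.284% of all genes lay higher without overlap, 0% were called and 3.79% had an unadjusted p under 0.05.

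Rel had 10.39, 10.16 and 10.50 with the combined treatment, 10.41, 10.17 and 10.36 with 13-HDHEA and 10.36, 10.38 and 10.44 with 16-HDHEA, against 10.31, 10.33 and 10.33 with vehicle. It lay above vehicle on all arrays with 16-HDHEA, with a difference of 0.07 (-0.13 to 0.26), and overlapped it with the other treatments. Thus 2 of 9 genes did not overlap upward with 16-HDHEA, against 3.57% of all genes, and 1 of 9 with 13-HDHEA, against 3.33%. With the combined treatment it was 1 of 9, against 3.01%. None of these genes passed after adjustment over all genes.

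Nfkbie had 8.68, 8.91 and 8.76 with the combined treatment, 8.75, 9.26 and 8.89 with 13-HDHEA and 8.82, 9.19 and 8.86 with 16-HDHEA, against 8.79, 9.15 and 8.90 with vehicle. The groups overlapped, and each combined array was lower than the vehicle array of its own experiment, by differences of -0.11, -0.24 and -0.14. The mean difference was -0.16 (95% interval -0.47 to 0.14, adjusted p = 1.00 in limma). With experiment as a block its unadjusted p was 0.0593 and its adjusted p 0.992. Against the mean of the single treatments, the combined treatment differed by -0.18 (-0.44 to 0.08), and no member passed in that comparison, where 0% of all genes were called and 3.21% had an unadjusted p under 0.05. With the block, the unadjusted p of Nfkbie there was 0.0213 and the adjusted p 1.00 in limma, and 0 of all genes were called. The share of 3.21% is from the fit without the block, and the share with the block is not given here.

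The positional isomers were compared at a matched dose of 5.0 µM and a matched time, as the 1 pair of single compounds. None of the 9 members passed in limma, against 0.00646% of all genes called, and 0 had an unadjusted p under 0.05, against 3.1% of all genes. Differences of 13-HDHEA minus 16-HDHEA ran from -0.08 for Nfkbiz to 0.11 for Relb. All 9 genes overlapped between the isomers, while 3.01% of all genes lay higher and 3.58% lower with 13-HDHEA without overlap. The 95% intervals of the members lay within 0.751-fold to 1.28-fold, which leaves smaller differences between the hydroxyl positions unresolved. Bcl3 differed by 0.10 (-0.08 to 0.28, adjusted p = 1.00 in limma). Doses differ between the single and combined treatments (5.0 µM against 2.5 µM of each), so the combined group is not a matched dose of either isomer. Of the 48 other pathway genes, 0 passed in any HDHEA comparison.

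Levels also differed between the experiments within groups. Nfkbie was highest in experiment 2 in each of the 5 groups, and its arrays lay 0.19 above their group means there on average, against -0.13 in experiment 1 and -0.06 in experiment 3. Nfkbib was highest in experiment 2 in the 4 LPS groups and lowest there without LPS. Nfkbia and Nfkbiz without LPS were both lowest in experiment 2 and highest in experiment 3. The average spread over experiments was 0.03 for Rela and Bcl3 and 0.32 for Nfkbie.

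**Figure D5:**
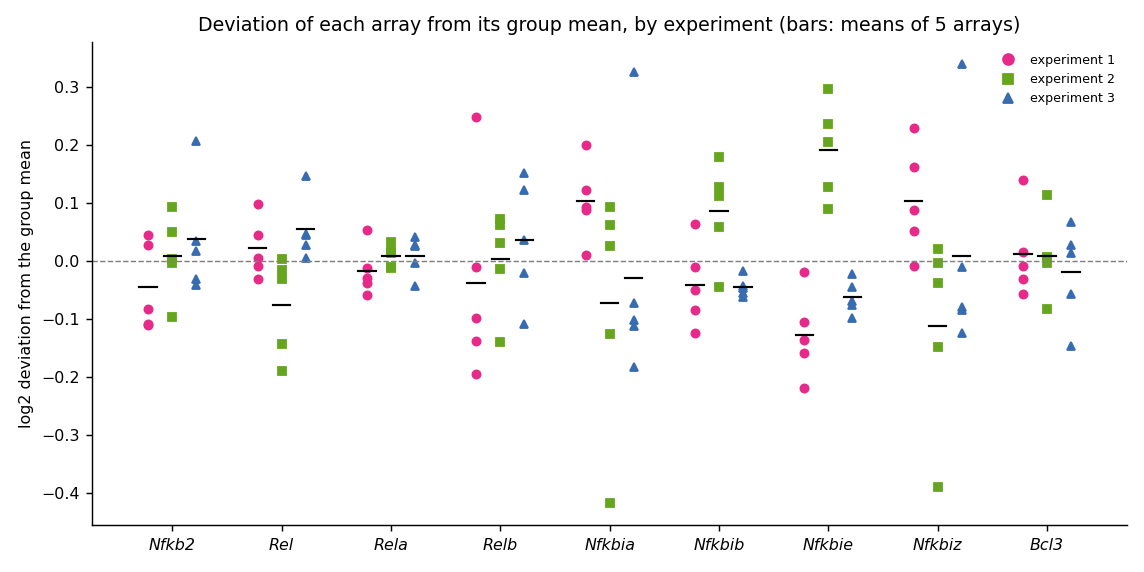
Deviation of each array from the mean of its group (vertical axis, log2) for the 9 genes, by experiment, with a bar for the mean of 5 arrays. The 5 arrays of experiment 2 all lie above 0 for Nfkbie, with a mean of 0.19.

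For each member, the gene outside the list with the most similar profile over the 5 group means was found, as the smallest root mean square difference after centring. For Nfkbiz it was Clec4n, a C-type lectin receptor gene, with a root mean square difference of 0.03 on a profile that spans 3.78, and 10 genes lay within 0.1 of it. For Bcl3 it was Pou2f2, a transcription factor gene, at 0.02, and 60 genes lay within 0.1. For Nfkbia it was Icosl, a costimulatory ligand gene, at 0.03, with 66 genes within 0.1. The nearest genes to the others were Marcks for Nfkb2, Sema4a for Rel, Wfdc18 for Nfkbib, Rilpl2 for Nfkbie and Ghr for Relb. Many genes came nearly as close to these: 213 lay within 0.1 of Nfkb2, 200 of Rel, 131 of Nfkbib, 149 of Nfkbie and 1104 of Relb. Rela, whose profile was nearly flat, had 6564 genes within 0.1, with Cdc73 nearest. These likenesses are descriptions over 5 group means that share the same arrays.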

How the data were processed

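Total RNA of 15 samples was measured on 1 array each. The authors deposited log2 values for each probe set, and the submitters' processing notes name RMA, without a version. RMA brings the arrays to like distributions, which can hide a change common to most genes. The labels do not say whether arrays came from separate cultures, so p-values measure the spread between these arrays. Groups were taken from the sample titles. Of 41345 probe sets, 25335 were in the platform's gene table and 23521 had 1 symbol. The brightest probe set of a gene was kept. A gene was tested where it exceeded its array's 40th percentile (3.16 to 3.22) in at least 3 arrays, which left 15468 of 22180 genes.

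The tests used limma 3.58.1 (R 4.3.3), with the means of the 5 groups as coefficients and all 15 arrays (10 residual degrees of freedom, prior 3.59), two-sided, with Benjamini-Hochberg adjustment over all genes tested and calls under 0.05. Intervals are 95% intervals. The number of arrays limits the precision. No counts or detection calls were used.

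Arrays with the same replicate number share an experiment identifier in the labels. Their deviations from group means correlated at 0.0835 to 0.404 over 30 pairs, and each of 15 arrays correlated best with its own number. Fits with experiment as a block were an alternative. No 2 arrays held identical values. The members and lists were chosen with earlier results of these data known. All 10 members are named, and of each pathway list the 3 called genes with the largest difference. Promoters are from RefSeq on GRCm38.p6. Figures were drawn with matplotlib 3.10.9.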

Additional observations from a re-analysis of the deposited data

How the results depend on the processing

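8 members were called for LPS against no LPS, and 0 in each of the 6 comparisons of HDHEAs, under each alternative run: experiment as a replicate block, only the arrays compared, no filter or a 60th percentile filter, arrays centred on their median, quantile normalization repeated, a trended and robust prior, the mean of probe sets, and each array of the groups compared left out in turn. With the replicate block 8 members were called for LPS, and the block changed no member's call. Over these alternatives the LPS difference ran from 3.45 to 3.81 for Nfkbiz, from 0.46 to 0.65 for Relb (adjusted p from 0.000686 to 0.0178 in limma) and from -0.05 to 0.07 for Rela, whose sign also turned without the array without LPS of experiment 3 (-0.01). Of all genes, 3951 to 5313 were called for LPS, and 22 to 31 of the 48 other pathway genes. Both ends of the all-gene range are from runs with 15468 genes tested. The number tested changed with the filter, so the counts between them are not shares of 1 total. Over the alternatives, 0 to 2 of all genes were called for 13-HDHEA against vehicle, 0 to 1 between the isomers, and 0 in each other HDHEA comparison. With so few genes called, the count of 0 does not set the members apart from other genes. Centring arrays on their median moved the median difference of all genes to 0.06. With 3 arrays a group, the intervals given with each comparison set what the fit without the block could resolve. For LPS against no LPS, the median standard error over all genes tested was 0.126 in that fit and 0.109 with the block.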
